A study of Canis lupus familiaris with 25 samples.

Results

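The 150 genes described here were those whose transcript levels differed most from dog to dog among 11 dogs with B-cell lymphoma. They were chosen from 32704 genes by the standard deviation (SD) of log2(CPM + 1), where CPM is a gene's read count scaled to a library total of 1000000. Only the 8077 genes with a median CPM of at least 10 over the 11 dogs could be chosen, and 2 further genes were left out by the rule. The SDs that chose the genes are therefore a description, and the 14 dogs outside the choice give the independent measurements.

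All 25 samples were fine needle aspirates of enlarged lymph nodes from client dogs with naturally occurring lymphoma, 1 sample per dog, taken ahead of CHOP chemotherapy (cyclophosphamide, doxorubicin, vincristine and prednisone). No dog had been treated before, apart from a single prednisone injection that was allowed. The labels give each dog an immunophenotype, found by flow cytometry, and a survival class of short or long. The outcome the study followed is progression free survival. How the short and long classes were set is not stated in its text. The labels count more dogs as B-Cell than the study's methods do, and the labels were followed. No breed, age or strain defines a group, so the dogs differ in genetic background.

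Each sample name also carries a number whose meaning the labels do not give. The 11 dogs that chose the genes have numbers from 1 to 12 (the consecutive series). All 11 are labelled B-Cell, 2 with short and 9 with long survival. The other 14 dogs have odd numbers from 13 to 39 (the odd series). Of these, 6 are labelled B-Cell (3 short, 3 long), 3 T-Cell (1 short, 2 long) and 5 Unknown (2 short, 3 long). The 6 B-Cell dogs of the odd series are called the held-out dogs below.

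Lymphoma of dogs usually shows itself as enlarged lymph nodes, and most cases arise from B cells, the cells that make antibodies. A lymphoma grows from a single clone, so the antibody gene segments and the growth signals of that clone can dominate the RNA of its node. An aspirate also draws T cells, macrophages and blood, and T-cell lymphomas lack much of the B-cell programme. The tables name genes by Ensembl identifier only, and 0 of the 32704 identifiers matched a symbol in the reference used here. The roles of the 150 genes, the marker lists and the labelled cell types could thus not be examined, and genes are given by identifier, level and dog.

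Library totals were 16563861 to 28979456 counts in the 11 dogs and 9592039 to 20685846 in the held-out dogs. The least abundant of the 150 genes still had a median of 184 counts over the 11 dogs. In single dogs 24 of them had fewer than 10 counts and 1 had none, so the lowest levels are imprecise. Dogs 002 and 008 stood apart among the 11. Over the 8077 genes their median distance from the level of the middle dog was 0.30 and 0.36 on the log2 scale, against 0.11 to 0.22 in the other 9. In held-out dog 037A and Unknown dog 024A the counts and the deposited FPKM values (fragments scaled by gene length and library size) went together less well than elsewhere. Over the 150 genes the correlation of their deviations was 0.56 and 0.74 in these dogs and 0.92 to 0.99 in the other 23.

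The 150 genes were of ordinary abundance. Their median CPM over the 11 dogs ran from 10.2 to 2088 with a middle value of 35.1, against 47.6 for all 8077 genes. Per gene length, their median FPKM ran from 0.26 to 498 with a middle value of 13.1, against 17.7. Together they took between 0.91% and 2.08% of the counts of each of the 11 dogs, least in dog 002. Their SD was 1.46 to 3.26 with a median of 1.72, against a median of 0.33 for all 8077 genes. Every gene of the 150 differed by at least 10-fold between the lowest and the highest of the 11 dogs, and the median difference was 42.0-fold. The limit fell in a smooth run of values: the last 3 genes inside had SDs of 1.467, 1.467 and 1.463, and the first 3 outside had 1.460, 1.459 and 1.449.

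ENSCAFG00000031786 had the largest SD. Its lowest, median and highest levels in the 11 dogs were 1.15, 108 and 558 CPM. The dogs fell into separate sets, with 4 dogs (001, 005, 008 and 022) at 4.70 CPM or less and 7 dogs at 92.6 CPM or more. The held-out dogs covered the same span, with a lowest level of 1.5, a median of 13.2 and a highest of 1035 CPM. Its levels in the T-Cell dogs, 16.5, 27.0 and 94.8 CPM, lay inside both ranges. This gene was thus near absent in some B-Cell nodes and abundant in others in both series.

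ENSCAFG00000032227, the second by SD, had a similar span of 1.07 to 615 CPM with a median of 114 in the 11 dogs. Dogs 001 and 008 were at 1.32 and 1.07 CPM, and the next dog was at 13.9 CPM. The held-out dogs ran from 1.69 to 168 CPM with a median of 23.6. Both sets of B-Cell dogs therefore held dogs above 100 CPM. The low end of the held-out dogs was the single dog 027A at 1.69 CPM, with the next, 029A, at 4.90 CPM.

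ENSCAFG00000001791, the third by SD, divided the 11 dogs differently. It was at 0.918 to 3.03 CPM in dogs 001, 002, 009 and 022 and at 27.4 to 300 CPM in the other 7. The held-out dogs were at 3.53 to 20.5 CPM, which lies between these sets. Here the wide spread of the 11 dogs was not seen in the held-out dogs, whose SD was 0.96 against 2.70.

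ENSCAFG00000024867, the fourth by SD, was an abundant gene that was low in 2 dogs. It was at 4.67 CPM in dog 008 and 26.7 CPM in dog 002, while the other 9 were at 298 to 1657 CPM. The held-out dogs were all high, with a lowest level of 676, a median of 943 and a highest of 2437 CPM. The T-Cell dogs were at 53.9, 192 and 1066 CPM, 2 of them below every held-out dog.

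**Figure D1:**
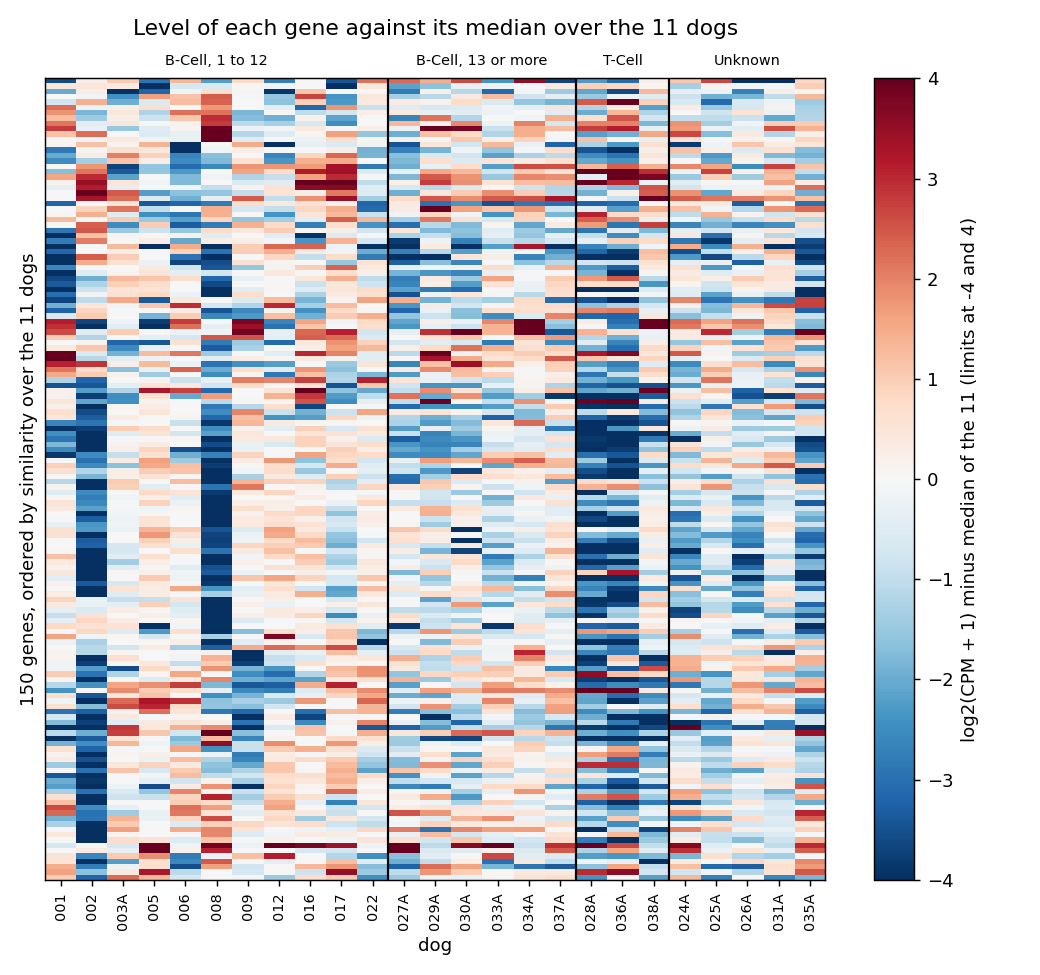
Heat map of the 150 genes (rows) in the 25 dogs (columns, by label and series), showing log2(CPM + 1) minus the gene's median over the 11 dogs, with colours ending at -4 and 4. Long dark blue runs mark genes far below that median, mostly in dogs 002 and 008 and in T-Cell dogs 028A and 036A.

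The first question was whether the same genes also differed among B-Cell dogs that had no part in choosing them. In the 6 held-out dogs 64 of the 150 (42.7%) were again among the 150 genes with the largest SD, a place that 1.86% of the 8077 genes hold. Among the 808 genes with the largest SD, which are 10% of the 8077, were 116 of the 150 (77.3%). Their median SD was 1.15 in the held-out dogs against 0.38 for all 8077 genes, and 148 of the 150 lay above that value. A range of at least 10-fold was found for 63 of the 150 (42.0%), against 2.24% of the 8077 genes. The median range of the 150 was 8.05-fold, with fewer dogs than the 42.0-fold above, and 2.02-fold for all 8077 genes.

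The SDs in the 11 and in the held-out dogs had a Pearson correlation of 0.67 and a Spearman correlation of 0.60 across the 8077 genes. This is a description, since genes of the same libraries are not independent. A median of at least 10 CPM was also found in the held-out dogs for 136 of the 150 genes (90.7%), against 95% of the 8077 genes, and 1 of the 14 lower genes was under 1 CPM. Without dog 037A the numbers were 58 in the top 150 and 115 in the top 808.

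**Figure D2:**
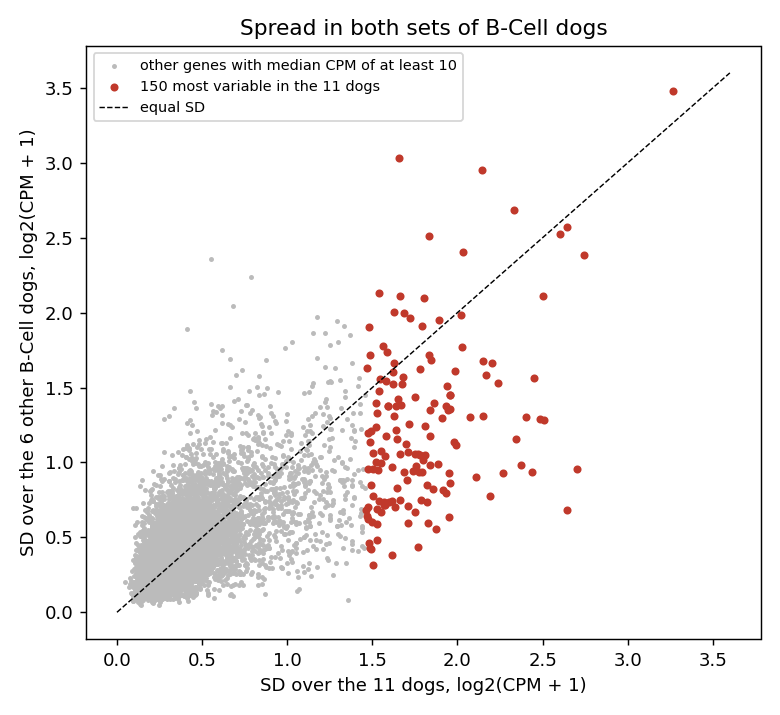
SD of log2(CPM + 1) over the 11 dogs (x axis) and over the 6 held-out dogs (y axis) for 8077 genes, with the 150 genes in red and the dashed line at equal SD. Most red points lie under the line and above the grey mass, with median SDs of 1.72 and 1.15.

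The same genes also spread widely outside the B-Cell label. Over the 5 Unknown dogs 62 of the 150 were in the top 150 and 124 in the top 808 by SD. Over the 3 T-Cell dogs the numbers were 36 and 95. Over all 14 dogs of the odd series they were 66 and 136, and all 150 exceeded the median SD of the 8077 genes.

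How the 11 dogs divided differed from gene to gene. Each gene's largest step between neighbouring dogs, ordered by level, had a median of 1.97 on the log2 scale, and it reached 4-fold in 74 genes. A single dog lay below this step in 39 genes and a single dog above it in 16. The most frequent divisions set dog 002 alone (19 genes), dogs 002 and 008 together (19 genes) or dog 008 alone (14 genes) below the rest. The highest level was more evenly shared, with dog 017 highest in 29 genes, dog 008 in 20, dog 016 in 17 and dog 012 in 16.

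Genes high in a single dog were the reverse pattern. ENSCAFG00000028574 was at 451 CPM in dog 008 and at no more than 24.6 CPM in the other 10. ENSCAFG00000009809 was at 299 CPM in dog 012, and the next dog was at 68.8 CPM. In the held-out dogs these genes stayed at 14.5 to 33.2 CPM and 13.4 to 31.7 CPM. ENSCAFG00000011356 was at 550 CPM in dog 001 with the next dog at 16.8 CPM, and ENSCAFG00000001131 was at 299 CPM in dog 008 with the next at 70.4 CPM. Their held-out dogs reached 131 and 100 CPM, above every other dog of the 11. The first pair of genes was thus high in no held-out dog, and the second pair had held-out dogs between the highest and the next of the 11.

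Within the 150, the closest pair of genes by pattern, picked after the values were seen, was ENSCAFG00000029904 and ENSCAFG00000032615, with a correlation of 0.997 over the 25 dogs. They were at 0.704 and 0.556 CPM in dog 005, 326 and 266 CPM in dog 009, and 750 and 599 CPM in held-out dog 034A. T-Cell dog 038A had the highest levels, 2153 and 1927 CPM. How reads shared between genes were counted is not given in the sources used here. Whether these 2 genes share reads was not tested.

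Dogs 002 and 008, both labelled B-Cell with long survival, gave the widest pattern in the set. One or the other was the lowest of the 11 in 90 of the 150 genes (60.0%), against 36.1% of the 8077 genes. They formed the lowest pair in 34 genes (22.7%), against 6.77%. Counting genes at least 4-fold below the median of the 11 dogs gave 77 in dog 002 and 67 in dog 008, and 11 to 34 in the other 9. Over the 8077 genes 2.54% were this low in dog 002 and 2.66% in dog 008. Both dogs were low in 37 of the 150, which is 48.1% of the genes low in dog 002 and 55.2% of those low in dog 008. Since dog 008 was low in 44.7% of all 150 and dog 002 in 51.3%, these shares were close to those of the whole set. These values took part in the choice of the genes and are a description.

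The dogs outside the choice allow the same count. The held-out dogs had 5 to 36 of the 150 genes at least 4-fold below that median, and the Unknown dogs 15 to 43. T-Cell dogs 028A and 036A had 72 and 81, and T-Cell dog 038A had 28. Dogs 028A and 036A were thus near or above the numbers of dogs 002 and 008, and dog 038A lay in the range of the other B-Cell dogs. Over the 8077 genes 8.91% were this low in dog 028A, 8.12% in dog 036A and 0.545% in dog 038A, and 0.136% to 2.64% in the 21 dogs other than 002, 008, 028A and 036A. Dogs 028A and 036A were also the farthest of the 25 over all 8077 genes, with a median distance of 0.65 and 0.60 on the log2 scale. The held-out dogs, which are of the odd series like the T-Cell dogs, were at 0.24 (033A) to 0.49 (029A). The distance is from dogs of the consecutive series, and the part of the series in it was not tested. For dog 002, 45 low genes were shared with 028A (58.4% and 62.5% of each list) and 50 with 036A (64.9% and 61.7%). For dog 008 the overlaps were 45 with 028A (67.2% and 62.5%) and 43 with 036A (64.2% and 53.1%). Between dogs 028A and 036A it was 57 (79.2% and 70.4%). Unknown dog 035A shared 36 low genes with dog 008 (83.7% and 53.7%). Other B-Cell dogs had such overlaps too. Of the 34 low genes of dog 001, 24 (70.6%) were low in 028A and 23 (67.6%) in 036A. Of the 36 of held-out dog 027A, 20 (55.6%) and 21 (58.3%) were. Of the 28 low genes of T-Cell dog 038A, 26 (92.9%) were low in dog 002 and 10 (35.7%) in dog 008. These shares are to be read beside the 48% of all 150 genes that were low in 028A, 54% in 036A and 28.7% in 035A. For dogs 002 and 008 these were 51.3% and 44.7%. Whether the shares exceed them by more than chance was not tested.

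**Figure D3:**
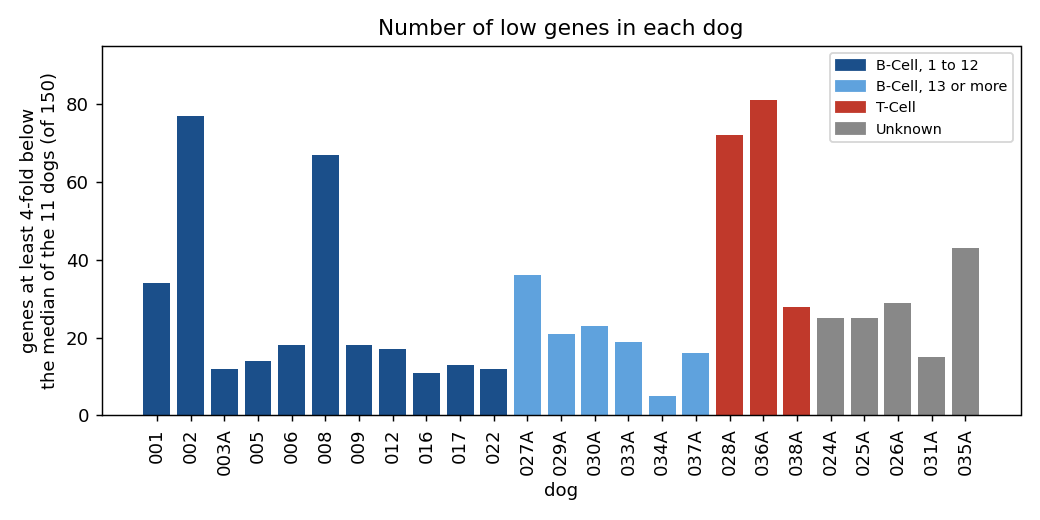
Bars give, for each of the 25 dogs, how many of the 150 genes were at least 4-fold below the gene's median over the 11 dogs, coloured by label and series. Dogs 002 (77), 008 (67), 028A (72) and 036A (81) stand above all others, of which dog 035A is highest with 43.

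The 34 genes with dogs 002 and 008 as the lowest pair were picked for that order. Lower levels in both dogs than in the other 9 are thus fixed by the choice and are a description. The median of the 34 genes was 3.85 CPM in dog 002 and 3.51 CPM in dog 008, against 51.4 to 106 CPM in the other 9 of the 11. The held-out dogs had medians of 36.1 to 97.4 CPM and the Unknown dogs 16.4 to 54.5 CPM. T-Cell dogs 028A and 036A had 9.51 and 6.32 CPM, and dog 038A had 40.8 CPM. In bulk samples such as these, fewer cells of a type and less RNA per cell cannot be told apart. Since no markers could be read, the part of cell content in this pattern was not tested.

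ENSCAFG00000010172, the seventh by SD, is an example. It was at 6.56 CPM in dog 002 and 7.64 CPM in dog 008, and at 213 to 1054 CPM in the other 9. The held-out dogs ranged from 51.3 to 495 CPM with a median of 222. The T-Cell dogs were at 3.34 CPM (028A), 1.2 CPM (036A) and 460 CPM (038A). The first 2 T-Cell dogs were thus below every B-Cell dog, and the third was among them.

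**Figure D4:**
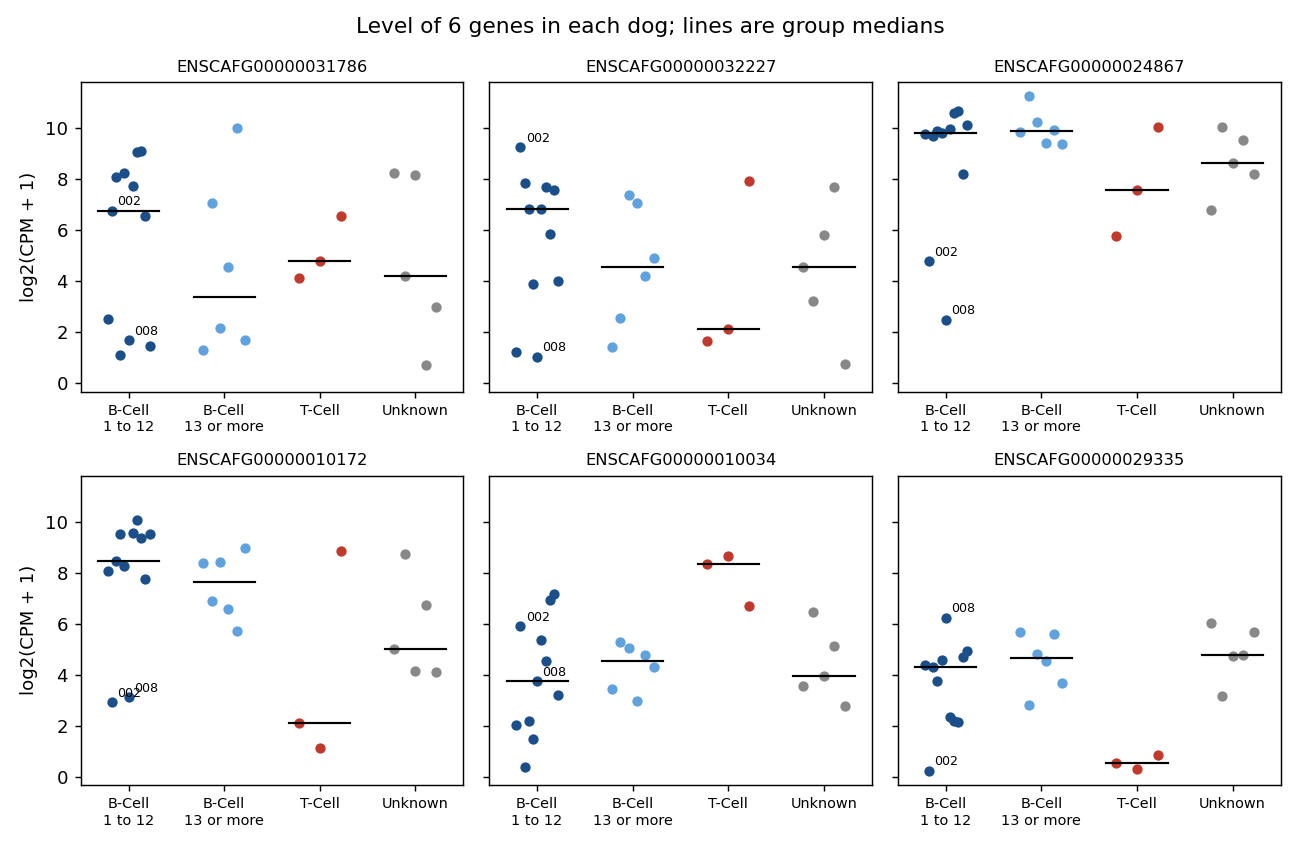
Levels of 6 of the genes in each dog as log2(CPM + 1), by label and series, with a line at each group's median and dogs 002 and 008 named. ENSCAFG00000024867 and ENSCAFG00000010172 are low in 002 and 008, ENSCAFG00000010034 is higher in all 3 T-Cell dogs than in the 6 held-out dogs, and ENSCAFG00000029335 is lower in them.

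T-Cell and B-Cell dogs were then compared within the odd series, 3 against 6, so that no dog had taken part in choosing the genes. The minimum level was set on B-Cell dogs, however, so genes low in B-Cell and high in T-Cell nodes could not be chosen, and genes chosen for wide spread above such a minimum have more room to be lower. The direction towards lower levels in T-Cell dogs is therefore partly fixed by the choice, and the 8077 genes share the minimum but not the spread. By CPM, 108 of the 150 genes (72.0%) had a lower median in the T-Cell dogs, against 52.1% of the 8077 genes. The median difference was -1.49 on the log2 scale, against -0.03 for all 8077 genes. All 3 T-Cell dogs lay below all 6 B-Cell dogs in 20 genes (13.3%), against 2.56% of the 8077 genes. All 3 lay above in 2 genes (1.33%), against 1.57%. Among the 34 genes lowest in dogs 002 and 008 the median difference was -2.20 and 30 were lower, and among the other 116 it was -1.2 and 78 were lower. By dog, the median difference over the 150 genes from the B-Cell median was -1.76 in 028A, -2.10 in 036A and -0.29 in 038A.

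The counts of all genes were tested with edgeR's quasi-likelihood test and Benjamini-Hochberg adjustment. With 3 T-Cell dogs it called 8 of 20110 genes (0.0398%), and 1 of them was among the 150. At an unadjusted p under 0.05 were 53 of the 150 (35.3%), against 19.6% of the 8077 genes. Of these, 33 (22.0%) were lower in T-Cell dogs, against 2.36%, and 20 (13.3%) were higher, against 17.2%. With limma on log2(FPKM + 1) the split of the 150 was 43 lower and 8 higher, against 8.95% lower and 6.64% higher of the genes with the same minimum, so the shares over all these genes depended on the scaling. The median edgeR log2 fold change was -0.67 for the 150 and 0.23 for the 8077 genes. Relative to all 8077 genes the 150 were thus at a median of -0.90, and this difference was -0.90 with DESeq2 and -0.73 with limma. It was -2.16 without dog 038A, -0.58 without dog 028A and -0.57 without dog 036A.

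**Figure D5:**
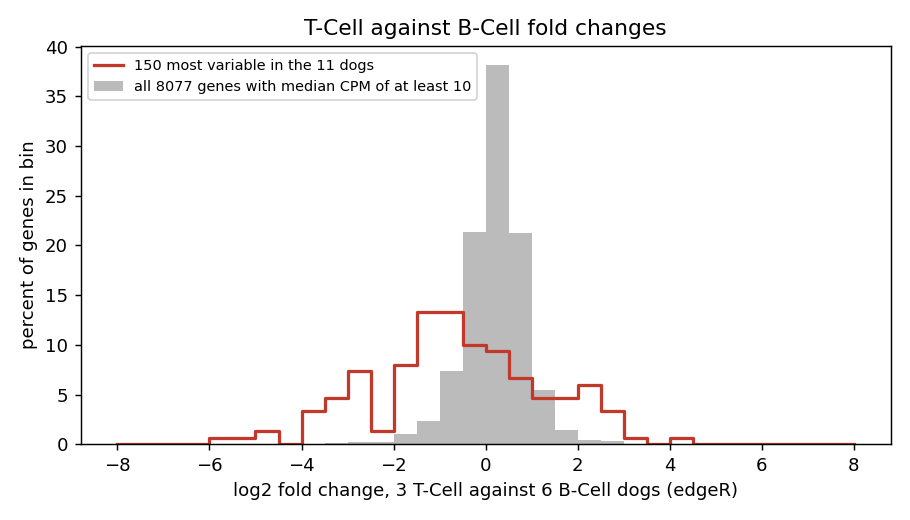
Share of genes by log2 fold change of the 3 T-Cell against the 6 B-Cell dogs of the odd series (edgeR, bins of 0.5), for the 150 genes (red line) and the 8077 genes (grey bars). A log2 fold change of -1 or less was found for 40.7% of the 150 and 4.06% of the 8077 genes, and one of 1 or more for 20% and 7.78%.

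The called gene was ENSCAFG00000010034, higher in T-Cell dogs. It was at 102, 318 and 396 CPM in the T-Cell dogs and at 6.82 to 38.1 CPM in the B-Cell dogs of the odd series, with a median of 22.6, so the groups did not overlap. The log2 fold change was 4.01 with a standard error of 0.49 (edgeR adjusted p = 0.0354, n = 3 and 6). The 11 dogs reached from 0.299 to 141 CPM with a median of 12.4, which overlaps the T-Cell dogs. The call was lost with limma and when any 1 of 7 of the 9 dogs was left out, with log2 fold changes of 2.81 in limma and 3.68 to 4.07 without a dog.

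ENSCAFG00000029335 had the smallest p among the lower genes. It was at 0.240, 0.441 and 0.819 CPM in the T-Cell dogs and at 5.94 to 50.3 CPM in the B-Cell dogs, again without overlap. The log2 fold change was -5.56 with a standard error of 0.91, and the adjusted p of 0.0578 (edgeR) missed the threshold. Among the 11 dogs only dog 002, at 0.175 CPM, was as low, and the others were at 3.42 CPM or more. ENSCAFG00000023822 (log2 fold change -3.54 with a standard error of 0.62, edgeR adjusted p = 0.0583) and ENSCAFG00000000569 (3.44 with a standard error of 0.67, edgeR adjusted p = 0.0623) also missed it.

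The number of calls depended on 1 dog and on the tool. Without T-Cell dog 038A, edgeR called 2051 genes, 47 of them among the 150 (31.3%, against 12.7% of the 8077 genes), and 99 of the 150 (66.0%, against 31.6%) had an unadjusted p under 0.05. DESeq2 on all 9 dogs called 35 of the 150 (23.3%, 27 lower and 8 higher), against 5.53% of the 8077 genes. When the genes were chosen again without dogs 002 and 008, none was called by edgeR and 55 of 150 had an unadjusted p under 0.05, against 19.6% of the genes they were chosen from. The median fold change of those 150 was -0.30, which is -0.52 relative to these genes.

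The 5 B-Cell dogs with short survival were compared with the 12 with long survival, with the series as covariate. Of these 17 dogs, 11 are the dogs whose spread chose the genes. Only the fit within the odd series used none of them, so the other numbers are not independent of the choice. EdgeR called 1 of 20360 genes (0.00491%), and none of the 150. At an unadjusted p under 0.05 were 18 of the 150 (12.0%), against 5.78% of the 8077 genes, 16 lower and 2 higher in dogs with short survival. Of the 8077 genes 367 were lower and 100 higher at this p, so most were lower in both sets. A log2 fold change below 0 was found for 67.3% of the 150 and 64.9% of the 8077 genes. DESeq2 called 4 of the 150 (2.67%), against 0.136% of the 8077 genes. With it 29 had an unadjusted p under 0.05, 21 lower and 8 higher. For the 8077 genes the share was 6.96%, 381 lower and 181 higher. Without dog 001 the edgeR number was 11 (7.33%, against 3.75%), and without dogs 002 and 008 it was 31 (20.7%, against 7.9%). Within the consecutive series it was 15 (10%, against 3.85%) and within the odd series 38 of the 149 tested (25.5%, against 4.79%). Of the 38, 31 were lower and 7 higher, and of all genes with the same minimum 314 were lower and 73 higher. In the odd series the B-Cell dogs with short survival have sample numbers 19, 23 and 25. Those with long survival have 29, 31 and 37. Survival and sample number thus cannot be told apart there.

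ENSCAFG00000011356 had the smallest p among genes higher with short survival. Dog 001, with short survival, was at 550 CPM, while the other 10 of the 11 were at 5.24 to 16.8 CPM. In the odd series the short survival dogs were at 12.1, 37.5 and 131 CPM and the long survival dogs at 18.7, 21.9 and 73.7 CPM, which overlap. The log2 fold change was 3.21 with a standard error of 0.71 (edgeR adjusted p = 0.702). ENSCAFG00000015157 was next, with a log2 fold change of 2.08 and a standard error of 0.83 (edgeR adjusted p = 0.999948). It was highest in short survival dogs 001 (486 CPM) and 029A (343 CPM). In the odd series its median was 15.9 CPM with short and 31.8 CPM with long survival, the other direction.

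ENSCAFG00000014008 had the smallest p in the other direction, with a log2 fold change of -2.77 and a standard error of 0.73 (edgeR adjusted p = 0.891). In the consecutive series the dogs with short survival were at 2.01 and 3.68 CPM, inside the 1.56 to 49.6 CPM of those with long survival. In the odd series those with short survival were at 2.13, 7.78 and 22.4 CPM and those with long survival at 41.5, 42.2 and 42.8 CPM, without overlap. The next gene, ENSCAFG00000006812, had a log2 fold change of -4.23 with a standard error of 1.26 (edgeR adjusted p = 0.954). In the consecutive series the dogs with short survival were at 0.302 and 0.458 CPM, from 5 and 8 counts. These lie inside the 0.175 to 51.8 CPM of those with long survival. In the odd series the ranges were 0.677 to 2.55 CPM with short and 2.42 to 35.5 CPM with long survival, which overlap.

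The series themselves separated the B-Cell dogs over many genes, but few of the 150. The study reports that its samples clustered by the technician who isolated them, and proposes some batch effects. Whether those clusters match the series is not stated there and was not tested. Between the 6 dogs of the odd and the 11 of the consecutive series, with survival as covariate, edgeR called 3237 of 20360 genes (15.9%), among them 21.8% of the 8077 genes and none of the 150. At an unadjusted p under 0.05 were 7 of the 150 (4.67%), against 40.2% of the 8077 genes, and 1 of the 7 was higher in the odd series. The standard errors differed too, with a median of 0.75 for the 150 and 0.21 for the 8077 genes. Because the genes were chosen for their spread in the 11 dogs, and with a minimum level there, both the small number and the direction are partly fixed by the choice. DESeq2 called 4 of the 150, against 18.6% of the 8077 genes. The number at an unadjusted p under 0.05 was 3 with limma, where 2 of the 3 were higher, 13 without dog 001, 3 without dog 012, 017 or 030A, and 4 without dog 029A or 034A, against 22.6% to 36.6% of the 8077 genes in these fits.

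Relative to the median of the 8077 genes, which was -0.36 in edgeR, the 150 lay at -0.15, and with limma at 0.08, so no common direction held across the scalings. ENSCAFG00000006255 had the smallest p among the genes higher in the odd series, with a log2 fold change of 1.77 (edgeR adjusted p = 0.0671). ENSCAFG00000030258, the next, was the most abundant of the 150, at 72.9 to 4875 CPM in the 11 dogs and 1037 to 17284 CPM in the held-out dogs. Its log2 fold change of 1.01 rested on dog 034A, at 17284 CPM, and was -0.22 without it. Among the lower genes were ENSCAFG00000000426 (-1.59, edgeR adjusted p = 0.0821) and ENSCAFG00000030958 (-2.30, edgeR adjusted p = 0.0882).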

How the data were processed

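RNA from lymph node aspirates was sequenced as single reads of 75 bp. The authors aligned the reads with HISAT2 2.1.0 to CanFam3.1 (Ensembl release 88 gene models) and quantified them with StringTie 1.3.3, per the methods and the submitters' processing notes. The FPKM values were computed by the authors with Ballgown, and the counts were deposited as raw whole numbers per gene. The counting program, its strand setting and its treatment of shared reads are not given in the sources used here. Columns holding values of samples left unused numbered 0.

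From the counts, CPM was computed on column totals, and SDs on log2(CPM + 1). Counts of all genes kept by filterByExpr were fitted with edgeR 4.0.16 (R 4.3.3, TMM, glmQLFit and glmQLFTest), with Benjamini-Hochberg adjustment at 0.05. All 150 genes passed that filter in the main fit of each comparison. In the survival fit of the odd series alone, and in the T-Cell fits without dog 027A or 030A, 149 passed. The standard error is the log2 fold change divided by the square root of F. DESeq2 1.42.0, limma 3.58.1 with trend on log2(FPKM + 1), other scalings, filters and covariates, and leaving out each dog in turn were alternatives. The fits were also run on simulated counts. These held no dog that stood apart from its group, so they give no support to the results above. Summaries used Python 3.11.15.

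Genes were named from the largest SDs, the smallest p per direction and the steps between dogs. Since 0 identifiers matched a symbol, at most 4 identifiers were printed per comparison, and the gene lists and cell type markers chosen for this work could not be run. ENSCAFG00000010172, the pair of genes with the closest pattern and the genes high in a single dog were picked after their values were seen. The genes and lists were chosen with earlier results of these data known. Depth limits genes with few reads, and coordinates and sequences were not used here.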

Additional observations from a re-analysis of the deposited data

Results flagged for a closer look

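Of 60 values examined, 7 held a dog far from the rest of its group by Dixon's criterion, which chance meets in about 1 in 20 groups. The named genes were picked for wide spread, steps between dogs or small p, so no excess over that rate can be read from this. On the log2(CPM + 1) scale, ENSCAFG00000001791 was at 9.38 in Unknown dog 024A (next 2.93). ENSCAFG00000006255 was at 4.43 in held-out B-Cell dog 027A (next 6.27). ENSCAFG00000030258 was at 2.99 in Unknown dog 031A (next 9.94). ENSCAFG00000030958 was at 5.96 in Unknown dog 035A (next 3.55). The share of counts on the 150 genes was 3.41% in held-out dog 034A (next 1.85%). In dog 034A the single gene ENSCAFG00000030258 held 1.73% of the counts. The correlation of counts with FPKM over the 150 genes was 0.56 in held-out dog 037A (next 0.92) and 0.74 in Unknown dog 024A (next 0.97).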

How the results depend on the processing

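Of the 150 genes, 80 were chosen again with the median absolute deviation in place of the SD, 97 without dogs 002 and 008 (an alternative chosen after seeing the data) and 114 to 140 without 1 of the 11 dogs. The held-out number of 64 stayed within 49 to 67 under every alternative run, 53 to 65 of these without 1 held-out dog. For survival, DESeq2 called 4 of the 150 in place of 0. The number of the 150 at an unadjusted p under 0.05, 18 in edgeR, was 29 with DESeq2, 38 in the odd series alone, 31 without dogs 002 and 008, 30 for genes chosen without them, and 11 to 22 without 1 dog. No call was gained by leaving out 1 dog. For the series, 1 gene was called without the survival covariate, 4 with DESeq2, 2 without dogs 002 and 008, 1 for genes chosen without them and 0 to 1 without 1 dog. The number at an unadjusted p under 0.05 was 3 with limma, 15 without dogs 002 and 008, 12 for genes chosen without them and 3 to 13 without 1 dog. For T-Cell against B-Cell, the 1 call became 35 with DESeq2, 7 with no filter on low counts, 8 with the Unknown dogs in the fit, and 0 with limma, without dog 037A or for genes chosen without dogs 002 and 008. Without 1 dog it was 0 to 47, and the number at an unadjusted p under 0.05 was 40 to 99, both highest without dog 038A. The cause was not tested. Of 248 alternative fold changes of named genes, 247 kept their direction and 1 reversed, that of ENSCAFG00000030258 between the series, -0.22 without dog 034A (-0.22 to 1.94 without 1 dog); 20 moved past the threshold and 9 no longer passed it. No paired analysis was possible because each dog gave 1 sample and no numbers are shared between groups. With 3 T-Cell dogs and 5 dogs with short survival, and few reads for genes near 0 CPM, differences missed here are not shown to be absent.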
